A study of Mus musculus with 6 samples.

Results

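The genes described are Fos, Fosb, Fosl1, Fosl2, Jun, Junb, Jund, Egr1, Egr2 and Egr3, the transcription factors of the mouse Fos, Jun and Egr families of immediate early genes. They were chosen by name, as all probe sets that the platform annotation assigns to exactly 1 of these 10 genes, which gave 16 of 45037 probe sets that are not array controls and 10 of 18193 genes. Of the 16 probe sets, 6 genes had a pair each and 4 genes had a single probe set. The cells were C2C12 cells, a mouse myoblast line, carrying a tetracycline-inducible integrin alpha7 construct, and they were kept undifferentiated in growth medium with 20% fetal bovine serum and 0.5% chick embryo extract. Induced cells received 1 µg/ml tetracycline for 36 h (3 arrays), and noninduced cells spent the same 36 h without it (3 arrays). Both groups carry the construct, so cells given tetracycline without it were not analysed here, and the labels do not say whether the line is a single clone. The design addresses how more integrin alpha7 affects transcription in myoblasts.

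Immediate early genes are transcribed within minutes of serum, growth factor, adhesion or stress signals, through kinase cascades that act on factors already bound at their promoters, and their transcripts are short-lived. Fos proteins cannot pair with each other and bind DNA as dimers with Jun proteins, which together form AP-1, whereas Jun proteins also pair among themselves. Egr proteins are zinc finger factors that bind GC-rich sites. In myoblasts, Jun and Fos activity is known from cell culture work to accompany growth in serum and to oppose muscle differentiation.

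Both groups expressed the defining myoblast markers: all 6 fixed for this check (Myod1, Myf5, Cdh15, Des, Chrna1 and Itga7) were above the signal filter, with summed signals of 6206 to 6488 on the arrays labelled induced and 6666 to 6759 on the noninduced arrays. Of 22 measured markers of differentiated muscle, fibroblasts, immune, endothelial and neural cells, 15 lay below the filter and none passed the test. Their summed signals overlapped between the groups for each type, for example 235 to 279 on the arrays labelled induced and 241 to 300.3 on the noninduced arrays for differentiated muscle. Single markers did separate: Pdgfra, a growth factor receptor and the fibroblast marker above the filter, gave 101, 75.1 and 65.4 on the arrays labelled induced and 60.6, 37.3 and 50.1 on the noninduced arrays (log2 0.56, limma adjusted p = 0.195), and Acta1, skeletal muscle actin, was at 0.25 without overlap (adjusted p = 0.310). The other differentiated muscle markers were lower, from -0.19 (Myh3) to -0.68 (Ckm), with overlap. Of the other fibroblast markers, all below the filter, Dcn was at -0.49 without overlap, Lum at -0.63 and Thy1 at 0.12. Myod1 (-0.17, limma adjusted p = 0.261) and Chrna1 (-0.12, 0.227) were lower without overlap, as was the dim neural marker Snap25 (-0.52). Itga7, the target of the construct, gave 675, 727 and 676 on the arrays labelled induced and 811, 778 and 786 on the noninduced arrays, so the labelled induction was not seen as a higher Itga7 signal (log2 difference -0.19, SE 0.058, limma adjusted p = 0.181). Whether its probes can see the construct is not known here, and every direction below rests on the labels. Runs were inferred from the recorded hybridisation times. Induced replicate 1 shared a run with all noninduced arrays, and induced replicates 2 and 3 were in another. Noninduced arrays were all scanned ahead of the others, so the order of scanning cannot be told apart from the groups. The 3′ to 5′ signal ratio of Gapdh was 0.761 to 0.782 on the arrays labelled induced and 0.788 to 0.802 on the noninduced arrays, and that of Actb was 1.12 to 1.14 and 1.1 to 1.11. The part of the marker sums, the runs and these ratios in the differences below was not tested.

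Promoter sequences of 4 members are shown, to describe where they hold the letters of short DNA elements. They are Jun, the member past the test, Fos and Junb, whose groups also did not overlap, and Egr2, whose groups did. Each line gives the 250 bases before the annotated start, read 5′ to 3′ on the strand of the gene, from RefSeq on build GRCm38.p6 (Fos chr12:85473640-85473889, plus strand, Jun chr4:95052223-95052472, minus strand, Junb chr8:84978749-84978998, minus strand, and Egr2 chr10:67537619-67537868, plus strand). Capitals mark the matches to the motifs listed after the lines.
Fos: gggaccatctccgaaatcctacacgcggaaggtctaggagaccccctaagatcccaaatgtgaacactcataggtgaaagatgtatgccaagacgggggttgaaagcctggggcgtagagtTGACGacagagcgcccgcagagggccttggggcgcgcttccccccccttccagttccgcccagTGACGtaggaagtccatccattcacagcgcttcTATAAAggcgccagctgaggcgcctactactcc
Jun: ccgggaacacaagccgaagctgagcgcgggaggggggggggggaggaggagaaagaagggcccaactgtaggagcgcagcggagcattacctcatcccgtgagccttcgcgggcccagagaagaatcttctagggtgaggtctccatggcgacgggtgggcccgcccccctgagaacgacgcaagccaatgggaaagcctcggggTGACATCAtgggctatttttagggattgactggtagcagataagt
Junb: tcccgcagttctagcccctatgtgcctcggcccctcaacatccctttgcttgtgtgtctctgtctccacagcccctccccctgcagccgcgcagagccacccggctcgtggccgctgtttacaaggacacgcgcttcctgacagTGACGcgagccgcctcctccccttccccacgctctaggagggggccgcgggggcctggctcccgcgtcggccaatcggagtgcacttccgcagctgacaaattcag
Egr2: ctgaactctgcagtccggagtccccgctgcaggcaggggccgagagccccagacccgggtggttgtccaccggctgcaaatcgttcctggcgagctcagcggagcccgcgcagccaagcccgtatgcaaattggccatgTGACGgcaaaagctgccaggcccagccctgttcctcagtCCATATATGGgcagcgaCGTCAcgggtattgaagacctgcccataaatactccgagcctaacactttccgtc

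Both strands were searched for the CArG box (the site of serum response factor, SRF), TGANTCA (AP-1), TGACATCA (a Jun and ATF site), TGACGTCA (the cyclic AMP response element) and its core TGACG, which overlaps the full element, GCGNGGGCG (Egr) and TATAAA (the TATA box). The Fos window held TGACG at -129 to -125 and at -66 to -62 and the TATA box at -33 to -28, counted from the base before the start as -1. The Jun window held TGACATCA at -45 to -38, a site found in 2.93% of the 32851 promoter windows of this length that were searched. Windows of 1 chromosome were left out of that search. The Junb window held TGACG at -106 to -102, which 17.8% of windows hold. The Egr2 window shown held a CArG box at -72 to -63, found in 1.47% of windows, with TGACG at -111 to -107 and, on the other strand, at -55 to -51. The windows of Fosb at -50 to -42 and of Fosl2 at -79 to -71 held the Egr motif, found in 4.7%. A match is a description of letters, and none was tied to the signals. Windows were available here for 7 of the 10 members. Egr1 was not among the genes searched, and Fosl1 and Egr3 gave no window. Egr2 had 5 entries with different starts, of which 4 held a CArG box and 1 held none of the motifs. The Egr2 windows that start at 67537619, 67537620 and 67537680 overlap and hold the same CCATATATGG site, so these matches are not separate. Jund, whose groups also did not overlap with its brighter probe set, had 1 entry, not shown, which held none of the motifs.

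Across the members, 14 probe sets of 9 genes passed the filter on dim signal (a mean over the 6 arrays of more than 23.4, the median probe set) and were tested, and Fosb and 1 probe set of Jund did not. In limma with Benjamini-Hochberg adjustment over 22518 probe sets, 1 of the 14 passed an adjusted p of 0.05, a Jun probe set that fell. By comparison 0.2% of all tested probe sets passed in either direction and 0.0799% passed as lower. All 3 arrays labelled induced were lower than every noninduced array for 6 of the 14 probe sets (Fos, Jun, Junb, Jund, Egr1 and Egr3), where 10.6% of all tested probe sets did, and above them for 1, of Fosl2, where 9.65% of all tested probe sets did. The log2 difference of signal plus 16, induced minus noninduced, was negative for 11 of the 14 (median -0.18), against 52.6% of all tested probe sets (median -0.01). After each array was centred on its own median, 10 of the 14 were negative (median -0.08), against 30.5% of all probe sets (median 0.08). The members were chosen with earlier results of these data known, so these shares describe the members and do not test them as a set. Since these are bulk samples, fewer cells using a gene and less RNA per cell cannot be told apart.

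**Figure D1:**
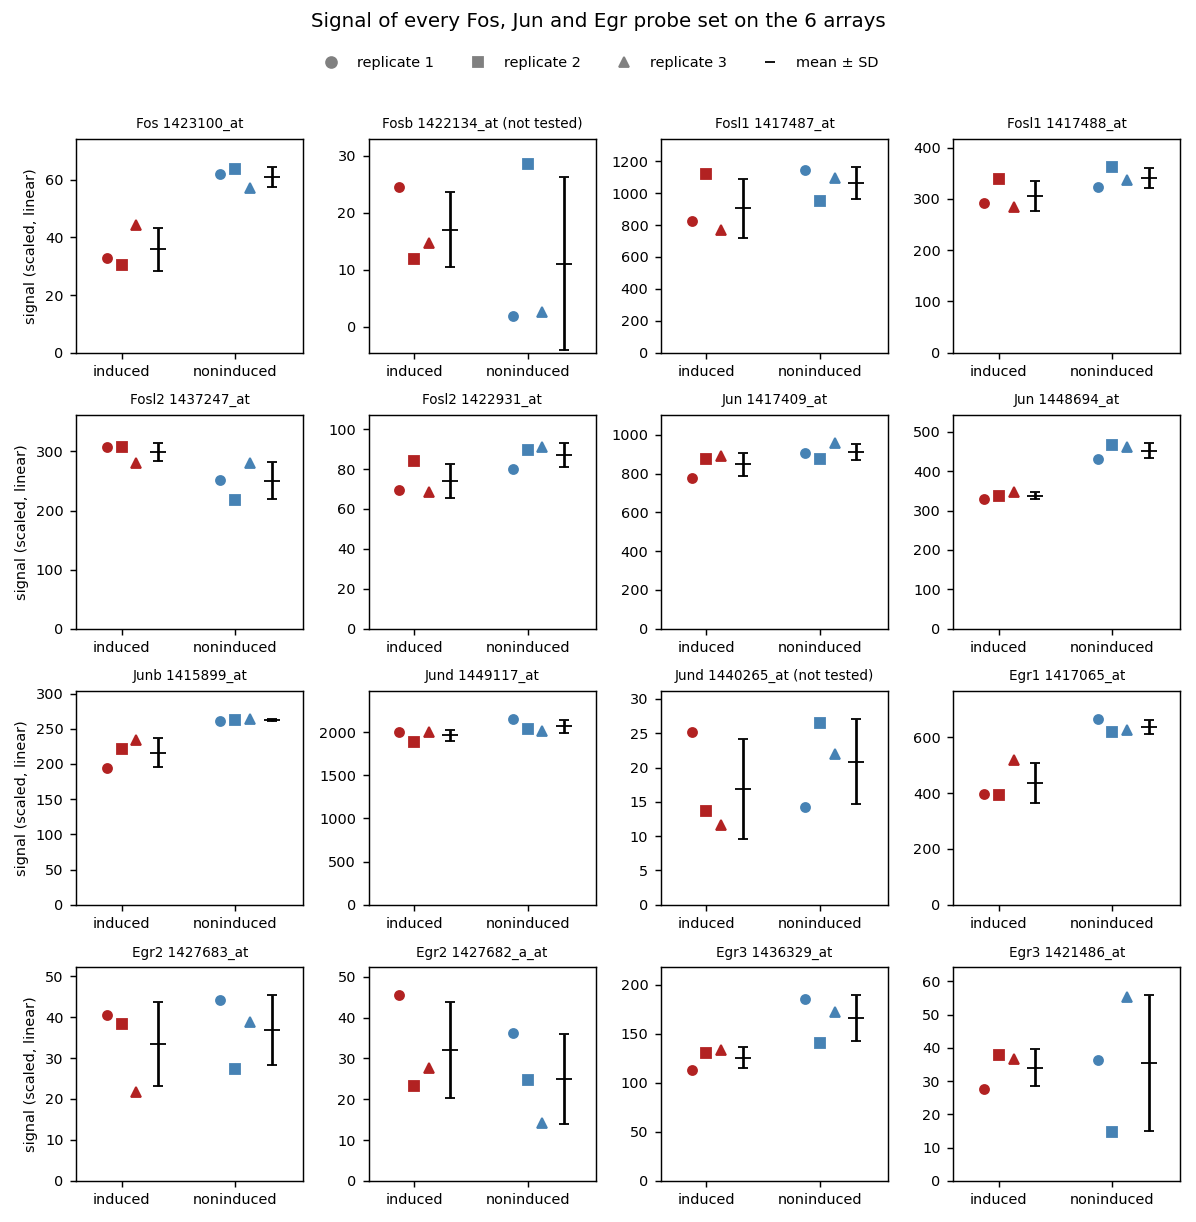
Scaled linear signal (y axes, 1 scale per panel) of each of the 16 Fos, Jun and Egr probe sets on the 3 arrays labelled induced (red, left) and the 3 noninduced arrays (blue, right), with marker shapes for replicates and black bars for mean ± SD. Points of the 2 groups are apart for Fos, Jun 1448694_at, Junb and Egr1, and mixed for Fosb and Egr2.

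Fos, the founding member of its family and a partner of Jun proteins in AP-1, gave 32.7, 30.4 and 44.3 on the arrays labelled induced and 62.1, 63.8 and 57.2 on the noninduced arrays. Each of the 3 arrays labelled induced lay below each noninduced array, and induced replicate 3 lay closest to the noninduced arrays. The means were 35.8 ± 7.47 and 61.0 ± 3.44 (SD, n = 3 each), a log2 difference of -0.58 (SE 0.16, 95% interval -0.93 to -0.23). It did not pass in limma (adjusted p = 0.149), and the exact two-sided permutation test gave p = 0.1, the smallest that 3 against 3 arrays allow. The signals are low on this array, and a log2 difference with 16 added understates the change of a dim probe set.

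The Fos relatives did not share one direction. Fosl1, which encodes FRA1, a Fos protein without a strong activation domain, gave 827, 1117 and 772 on the arrays labelled induced and 1145, 953 and 1096 on the noninduced arrays with its brighter probe set. Induced replicate 2 lay among the noninduced arrays, so the groups overlapped (log2 -0.24, 95% interval -0.50 to 0.01, limma adjusted p = 0.357). The other Fosl1 probe set gave -0.15 (adjusted p = 0.422), also with induced replicate 2 highest of the arrays labelled induced, at 339 against 292 and 285.

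Fosl2, which encodes FRA2, a Fos protein of similar build, was measured by probe sets with opposite signs. The brighter, 1437247_at, gave 308, 307 and 281 on the arrays labelled induced and 252, 219 and 281 on the noninduced arrays, where the lowest induced value, 281.04, barely exceeded the highest noninduced value, 280.6. Its log2 difference was 0.25 (95% interval 0.04 to 0.45, limma adjusted p = 0.265), the highest of the 14 tested. The dimmer, 1422931_at, gave 69.6, 84.1 and 68.7 on the arrays labelled induced and 80.1, 89.8 and 91.2 on the noninduced arrays (log2 -0.20, adjusted p = 0.504). Fosb, whose product is the closest relative of Fos, gave 24.5, 11.9 and 14.7 on the arrays labelled induced and 1.95, 28.6 and 2.66 on the noninduced arrays. Fosb was below the filter and was not tested, and noninduced replicate 2 alone gave both a higher value than any other array and the overlap of the groups.

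Jun encodes c-Jun, the AP-1 subunit that Jun N-terminal kinase activates. With probe set 1448694_at it gave 330, 336 and 347 on the arrays labelled induced and 431, 466 and 460.5 on the noninduced arrays. The groups were well apart and the arrays of each group lay close together. The means were 338 ± 8.79 and 452 ± 19.0 (SD, n = 3 each), and the log2 difference was -0.41 (SE 0.068, 95% interval -0.55 to -0.26, limma adjusted p = 0.0397, exact permutation p = 0.1). This is a fall of 24.5% on the fitted scale, in 3 of 3 arrays labelled induced. The call needed every array: the adjusted p was 0.154, 0.112 and 0.0578 without induced replicates 1, 2 and 3 and 0.0518, 0.123 and 0.148 without noninduced replicates 1, 2 and 3, while the log2 difference stayed between -0.44 and -0.38. In limma the call was also lost after median centring (adjusted p = 0.0710), with no filter (0.0733), without a variance trend (0.293), with the replicate block (0.102), with the run as a block (0.329) and in the first run alone (0.323).

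The second Jun probe set, 1417409_at, gave 779, 875 and 889 on the arrays labelled induced and 906, 875 and 957 on the noninduced arrays. Here the groups overlapped, induced replicate 1 was the lowest array, and the log2 difference was -0.11 (95% interval -0.25 to 0.04, limma adjusted p = 0.477). Within each array the 2 Jun probe sets differed, in log2 units, by 1.20, 1.34 and 1.32 on the arrays labelled induced and by 1.05, 0.89 and 1.03 on the noninduced arrays. These within-array differences did not overlap between the groups (a log2 gap of 0.30, exact permutation p = 0.1, 0.3 after adjustment over the 6 genes with 2 probe sets). The probe sets of Fosl2 were 0.44 further apart on the arrays labelled induced, also without overlap (exact permutation p = 0.1, adjusted 0.3), and those of Fosl1, Jund, Egr2 and Egr3 overlapped. The positions of the probes in the transcripts were not used here.

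Junb encodes a Jun protein that is a weaker activator and often opposes c-Jun. It gave 194, 221 and 233 on the arrays labelled induced and 261, 262 and 264 on the noninduced arrays. The noninduced arrays were almost equal and all arrays labelled induced lay below them, induced replicate 1 the furthest. The means were 216 ± 20.2 and 262 ± 1.41 (SD, n = 3 each), and the log2 difference was -0.27 (SE 0.087, 95% interval -0.45 to -0.08, limma adjusted p = 0.202, exact permutation p = 0.1).

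Jund, which encodes the Jun protein that is made steadily in resting cells, showed the smallest difference among the probe sets whose groups did not overlap. It gave 1998, 1886 and 1998 on the arrays labelled induced and 2151, 2039 and 2009 on the noninduced arrays, a log2 difference of -0.07 (95% interval -0.18 to 0.03, limma adjusted p = 0.507). The direction turned to 0.02 after median centring. The second Jund probe set gave 25.2, 13.7 and 11.6 on the arrays labelled induced and 14.2, 26.4 and 22.01 on the noninduced arrays, was below the filter and was not tested.

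Egr1, a zinc finger activator that serum and ERK signalling induce through SRF sites, gave 397, 392 and 520 on the arrays labelled induced and 666, 620 and 628 on the noninduced arrays. As for Fos, all arrays labelled induced were lower, and induced replicate 3 was the least low. The means were 436 ± 72.4 and 638 ± 24.7 (SD, n = 3 each), and the log2 difference was -0.54 (SE 0.097, 95% interval -0.75 to -0.33). With a limma adjusted p of 0.0538 and an exact permutation p of 0.1, Egr1 stood just outside the threshold, at rank 48 of 22518 by p, and the Jun probe set just inside it, at rank 40. Without induced replicate 3 Egr1 passed, with a log2 difference of -0.67 and an adjusted p of 0.0113, and without each other array it did not (0.0983 to 0.178).

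Egr3, an Egr factor known for its role in muscle spindles, gave 113, 131 and 134 on the arrays labelled induced and 186, 140.4 and 172 on the noninduced arrays with probe set 1436329_at. The arrays labelled induced were all lower, but noninduced replicate 2 lay near them. The log2 difference was -0.36 (SE 0.12, 95% interval -0.61 to -0.10, limma adjusted p = 0.203). The dimmer probe set, 1421486_at, gave 27.7, 37.7 and 36.8 on the arrays labelled induced and 36.5, 14.5 and 55.3 on the noninduced arrays. Its spread among noninduced arrays covered the other group (log2 0.04, 95% interval -0.56 to 0.64), so a difference of the size seen with 1436329_at was not detectable there.

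Egr2, the Egr factor known from Schwann cells and hindbrain, was dim with both probe sets, and the groups overlapped. Probe set 1427683_at gave 40.5, 38.2 and 21.8 on the arrays labelled induced and 44.2, 27.3 and 38.9 on the noninduced arrays (log2 -0.10, 95% interval -0.57 to 0.37). The other gave 45.6, 23.2 and 27.6 on the arrays labelled induced and 36.3, 24.7 and 14.2 on the noninduced arrays (log2 0.24, 95% interval -0.32 to 0.79). Neither passed in limma (adjusted p = 0.867 and 0.711), and the interval of 1427683_at, though not that of the other probe set, reached the -0.54 of Egr1.

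**Figure D2:**
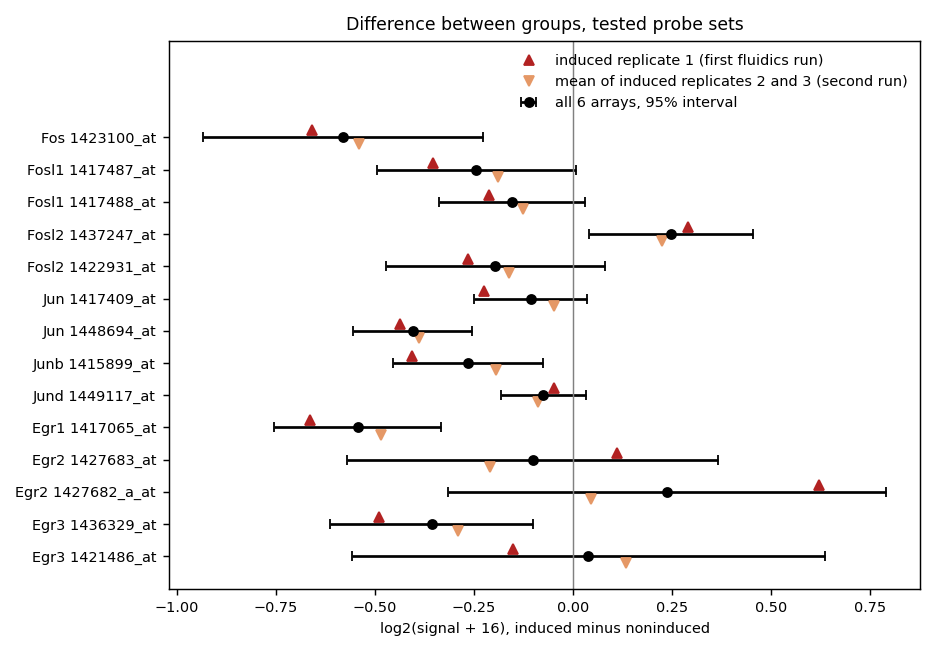
Log2 difference of signal plus 16, induced minus noninduced (x axis), for the 14 tested probe sets (rows): black points with 95% intervals for all 6 arrays, red triangles for induced replicate 1 and orange triangles for the mean of induced replicates 2 and 3, each against the 3 noninduced arrays. Fos (-0.58) and Egr1 (-0.54) lie furthest left. The points of the probe sets of Jun, Fosl2, Egr2 and Egr3 differ within each gene, but only for Jun do the intervals not overlap.

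The values were also read by run, as inferred from the hybridisation times. Against the same noninduced arrays, induced replicate 1, the single array of its group in the first run, gave -0.66 for Fos, -0.66 for Egr1, -0.44 for Jun, -0.41 for Junb and -0.49 for Egr3. The mean of induced replicates 2 and 3 gave -0.54, -0.48, -0.39, -0.20 and -0.29 for these probe sets in the same order. Both comparisons share the noninduced arrays, and for these probe sets, whose groups did not overlap, a negative sign in each follows from that. One probe set each of Egr2 (0.11) and Egr3 (-0.15) had the opposite sign on induced replicate 1 to that of all arrays together.

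The 3 arrays labelled induced were not alike across the members. Induced replicates 1 and 3 each lay below all noninduced arrays for 10 of the 14 probe sets, and induced replicate 2 for 7, where 27.9%, 29.2% and 30.5% of all tested probe sets did so on replicates 1, 3 and 2. Fos and Egr1 were lowest on induced replicate 2, at -0.73 and -0.68 against the noninduced mean, and least low on induced replicate 3, at -0.35 and -0.29. Fosl1 had the other order, with 0.07 on induced replicate 2 and -0.45 on induced replicate 3 for its brighter probe set. Junb was lowest on induced replicate 1, at -0.41. No single array labelled induced therefore gave the lower values of all members.

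**Figure D3:**
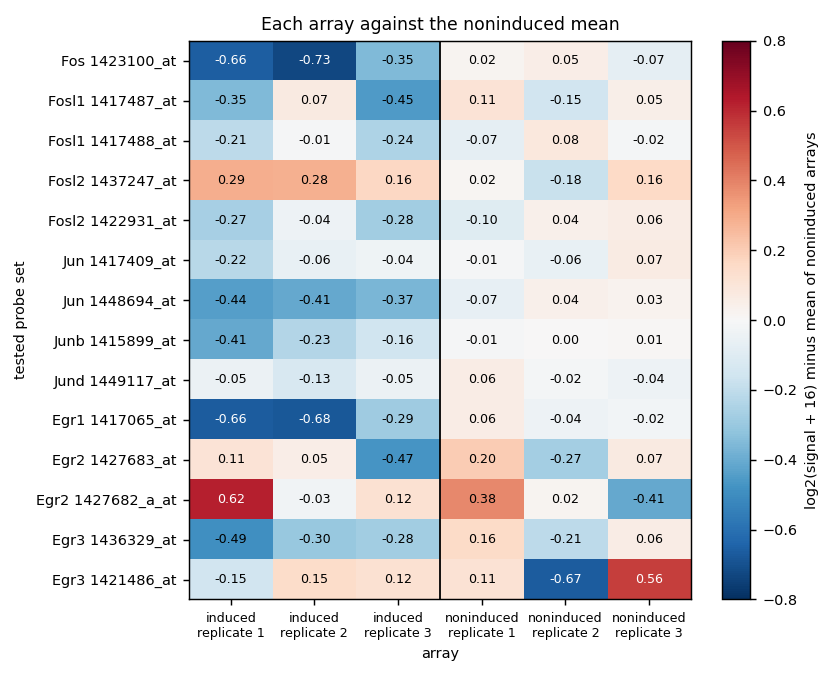
Log2 of signal plus 16 minus the mean of the 3 noninduced arrays (colour, printed in each cell) for the 14 tested probe sets (rows) on the arrays labelled induced (left columns) and noninduced (right columns). Fos and Egr1 share a pattern, lowest on induced replicate 2 and least low on induced replicate 3, which Fosl1 does not have.

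Genes around these factors were read from 5 lists of partners, upstream factors, other immediate early genes and targets, each gene by its brightest probe set. Of 77 listed genes 69 had a probe set of their own and 55 were tested. Of the 55, 1 fell, none rose and 54 did not pass in limma, where 0.306% of all 10775 genes tested this way passed. There were 30 negative and 25 positive log2 differences, with a median of -0.03, against -0.01 for all genes. After median centring the median of the 55 was 0.07, against 0.08 for all tested probe sets. That value of 0.08 is also the reference for the centred medians of single lists below. All arrays labelled induced lay below every noninduced array for 10 of the 55 and above for 7. Among all 10775 genes 1255 lay below and 1158 above in this way.

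The gene that fell was Klf10, a zinc finger repressor induced early by TGF-beta. It gave 462, 507 and 454 on the arrays labelled induced and 631, 602 and 668 on the noninduced arrays, a log2 difference of -0.41 (limma adjusted p = 0.0399) with no overlap. Its adjusted p was between 0.0724 and 0.162 when any 1 array was left out, and 0.0790 after median centring. Of the 21 other immediate early genes tested, 11 were negative and 10 positive (median -0.03), with 6 lower and 2 higher without overlap. Among all 10775 genes read this way, 1255 were lower and 1158 higher without overlap. Klf4, a growth-restraining zinc finger factor, gave 259, 293 and 272 on the arrays labelled induced and 216, 197 and 196 on the noninduced arrays (log2 0.41, adjusted p = 0.0757), and it passed after median centring (0.50, adjusted p = 0.0360). Rhob, a small GTPase that growth factors induce, was at -0.32 (adjusted p = 0.0557) with no overlap, and Sgk1, a serum-induced kinase, was at 0.01 (-0.02 for induced replicate 1 alone).

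Of 9 partner factors tested, 5 were negative and 4 positive and none passed (median -0.07, and 0.02 after median centring). Batf2, a small AP-1 factor, was at -0.73 and Atf7, a partner of Jun proteins, at -0.24, both with overlapping groups (adjusted p = 0.251 and 0.499). Atf2, the partner of c-Jun at ATF sites, was at 0.13 and Jdp2, a repressive Jun partner, at 0.08. Among Egr relatives and corepressors 2 were tested. Nab2, a corepressor of Egr proteins that is itself an Egr target, gave 328, 322 and 369 on the arrays labelled induced and 465, 407 and 405 on the noninduced arrays. Its groups did not overlap, and its log2 difference was -0.31 (SE 0.082, limma adjusted p = 0.127). Nab1, the related corepressor, was at 0.03 (-0.03 without induced replicate 3 and -0.0060 without noninduced replicate 3). The other tested Nab1 probe set, which was dimmer, was at -0.26 with overlapping groups (limma adjusted p = 0.422).

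Transcripts of the upstream kinases and SRF cofactors lay close to 0: of 14 tested, 6 were negative and 8 positive, none passed, and the values ran from -0.12 to 0.20 (median 0.04). Elk3, an SRF partner, was at 0.14, Map2k4, a kinase that activates Jun N-terminal kinase, at 0.17 (-0.18 with its other probe set), Rps6ka5, a kinase of histones and CREB, at 0.20 and Map2k1, a kinase that activates ERK, at -0.02 (0.07 after median centring). Transcript signals do not measure the activity of these kinases. Of 9 AP-1 and Egr target genes tested, 7 were negative and 2 positive and none passed (median -0.12, and -0.02 after median centring). Pdgfb, a growth factor subunit, gave 287, 381 and 299 on the arrays labelled induced and 435, 408 and 399 on the noninduced arrays (log2 -0.36, adjusted p = 0.146), and Ereg, an EGF receptor ligand, was at -0.20. The cell cycle gene Ccnd1 was at 0.06 and Cd44, a cell surface receptor, at -0.04 (0.06 after median centring).

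**Figure D4:**
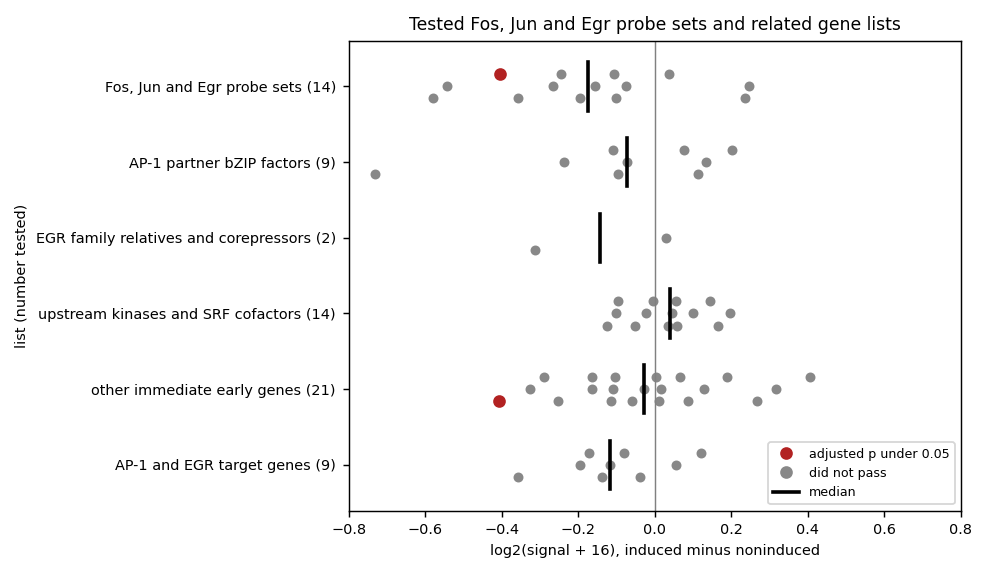
Log2 difference of signal plus 16, induced minus noninduced (x axis), of the 14 tested member probe sets and of the tested genes of 5 related lists (rows, number tested in brackets), with medians as black bars. A single point passed among the members (Jun) and a single one among the lists (Klf10), both in red.

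The tested genes whose profiles over the 6 arrays were most like those of Fos, Egr1 and Jun were found by the root mean square difference of log2 profiles, each centred on its own mean. For Fos, whose own profile had a root mean square size of 0.315, they were Ostc (0.0553), Dnase2a (0.0560) and Lipe (0.0634). For Egr1 (0.302) they were Lipe (0.0248), Dnase2a (0.0383) and Plod3 (0.0392), so Lipe and Dnase2a were named for both. For Jun 1448694_at (0.207) they were Gpr137 (0.0284), Tnfrsf12a (0.0346) and Dynap (0.0368), of which Tnfrsf12a and Dynap passed in limma (adjusted p = 0.0219 and 0.0151). As genes picked for likeness to a profile that passed, they are no separate evidence, and Tnfrsf12a passed in 7 and Dynap in 9 of 17 alternatives. Both missed with no filter (0.105 and 0.0554), without a variance trend (0.293 each), with the replicate block (0.0711 each) and with the run as a block (0.256 and 0.195). Plod3, the bright one of those named for Egr1, gave 391, 382 and 498 on the arrays labelled induced and 609, 577 and 584 on the noninduced arrays, the same order of arrays labelled induced as Egr1. Likeness over 6 arrays of 2 groups is a description of these arrays.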

How the data were processed

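Total RNA of 6 cultures was labelled with biotin, per the labels' protocols, and hybridised to 1 Affymetrix Mouse430_2 array each, per the file headers. Each deposited value is the intensity of a probe set on a linear scale. The submitters' processing notes name GCOS 1.1.1, without settings. With 2% of values trimmed from both ends, all arrays averaged 150, so values are relative to the array. The median signal was 22.8 to 24.8 on the induced arrays and 24.9 to 27.7 on the noninduced arrays, and the number of arrays limits precision. The deposited instrument records hold no expression value (unit other) and gave the hybridisation times. Runs were inferred from these times and split where hybridisations were over 60 minutes apart.

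The 64 control probe sets were set aside. Gene names came from the platform annotation, in which 34945 of the remaining probe sets had 1 gene and 10092 had several or none listed. RefSeq gene IDs changed 0 symbols. Groups, from the titles, were compared on log2(signal + 16) by limma 3.58.1 (R 4.3.3), using lmFit and trended eBayes (p-values were Benjamini-Hochberg adjusted over 22518 probe sets above the median mean signal). Steps were tested on simulated data. The series describes the samples as separate biological ones.

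Members and lists were chosen with earlier results of these data known. Named genes are the members, Itga7, for each list the genes past the threshold, the 2 with the largest difference and the 2 brightest, and for Fos, Egr1 and Jun the 3 most alike. Probe sets of 1 gene were compared by whether their within-array log2 difference differed between the groups, and levels of different genes were not compared. A list gene was read by its brightest probe set, and others of the same gene could differ in sign (Elk3, Nab1, Map2k4, Ccnd1 and Rps6ka5). Alternatives were the scaling, the filter, the pseudocount, the variance model, the replicate block, the inferred run and leaving out each array. Same-numbered arrays did not deviate together (correlations of 0.01, -0.06 and -0.0088).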

Additional observations from a re-analysis of the deposited data

How the results depend on the processing

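The alternatives changed how many probe sets passed more than they changed the members' values. The call of 1 member probe set in limma became 2, with Egr1 added to Jun, after quantile normalization, with the filter at the 75th percentile, with a pseudocount of 64 and with robust moderation. It became 0 after median centring, with no filter, without a variance trend, with the replicate block and with the inferred run blocked. Over all alternatives 4 to 7 member probe sets reached an unadjusted p of 0.05, and 6 did in the limma fit of the report. In that fit 3306 of all 22518 tested probe sets did so. After median centring 4207 of all did, and 4 member probe sets. Leaving out 1 array gave 0 to 1 member calls, the 1 being Egr1 without induced replicate 3. The 45 calls over all probe sets became 306 after median centring, 102 with the stricter filter, 74 with robust moderation, 5 with the replicate block, 1 with no filter and 0 without a variance trend (2817 at an unadjusted p under 0.05), with the run as a block (1923) or in the first run alone (1969), and 0 to 49 when 1 array was left out (2604 unadjusted without induced replicate 1, which gave the 0). The single list gene became 2 with the stricter filter and with robust moderation, and 0 with no filter, without a variance trend, with the replicate block, in both fits on the runs and when any 1 array was left out. After median centring the list count stayed at 1, but the gene was Klf4 (limma adjusted p = 0.0360) and no longer Klf10 (0.0790). The replicate numbers are not known to pair cultures, so a call lost under the replicate block says nothing on its size, and the adjusted p of Jun with it was 0.102.

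Fos, Jun 1448694_at, Junb, Egr1 and Egr3 1436329_at kept a negative sign in all 17 alternatives. Because their groups did not overlap, only a change of scaling (quantile normalization or median centring) could have altered that sign. The other alternatives could change its size or its p-value alone. Fos ran from -0.77 to -0.33, Egr1 from -0.67 to -0.45, Jun 1448694_at from -0.44 to -0.31, Junb from -0.41 to -0.17 and Egr3 from -0.49 to -0.26. After median centring Jund was at 0.0184, Map2k1 at 0.0709 and Cd44 at 0.0561. With the run as a block or in the first run alone, which rest on induced replicate 1, Egr2 1427683_at was at 0.11, Egr3 1421486_at at -0.15 and Sgk1 at -0.0177. With a pseudocount of 64 Egr3 1421486_at was at -0.0011. Leaving out 1 array gave -0.24 to 0.0817 for Egr2 1427683_at, -0.30 to 0.32 for Egr3 1421486_at, -0.0814 to 0.0171 for Map2k1, -0.0734 to 0.0018 for Cd44, -0.0425 to 0.0747 for Sgk1 and -0.0289 to 0.11 for Nab1. The cause was not tested. Dim signals limit Fosb, Egr2, Batf2 and the dimmer probe sets of Egr3 and Jund.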
